A study of Mus musculus with 12 samples.

Results

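Heat shock proteins and the other molecular chaperones were followed in the spleen RNA of busulfan-treated mice that received intestinal microbiota. The set held 48 mouse genes, named by symbol and sorted by where their proteins work. There were 9 heat-inducible and 9 constitutive chaperones of the cytosol, 6 cochaperones of HSP90, 2 heat shock factors, 4 mitochondrial chaperones, 11 chaperones and folding enzymes of the endoplasmic reticulum (ER) and 7 subunits of the cytosolic chaperonin ring. All 48 genes were found among the 18221 genes of the deposited tables. All 48 passed the filter on low values, an RPKM (read number scaled to transcript length and to the mapped reads of the library) of at least 1 in at least 3 mice, which 12671 genes of the series passed.

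The mice were male ICR animals, an outbred stock, aged 3 weeks at the start and 8 weeks at sampling. Con-sa mice received saline, and the other 3 groups received a single injection of busulfan, an alkylating anticancer drug, at 40 mg/kg. B-sa mice then received saline, B+Con-FMT mice received small-intestine content of control donors, and B+A10-FMT mice received that of donors dosed with alginate oligosaccharide at 10 mg/kg. The transplants were given by mouth every day for 2 weeks, and each was pooled over its donors, so that all recipients of a group shared 1 donor pool. Each group had 3 libraries, called mice here. The labels number them without saying that they were separate animals, and p-values measure the spread between these libraries. Differences were tested with limma on log2(RPKM + 1), with p-values adjusted by Benjamini-Hochberg over all 12671 genes, and a gene was said to rise or fall at an adjusted p under 0.05. Fold changes on this scale understate the change of genes of low level, and every error of a fold change is a standard error (SE).

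Chaperones bind unfolded or unfinished proteins and keep them from clumping. HSP70 proteins, helped by J-domain (DNAJ) partners, hold short exposed stretches, and HSP90 proteins with their cochaperones finish the folding of kinases and steroid receptors, and the chaperonin ring encloses proteins such as actin and tubulin. When unfolded protein builds up in the cytosol, heat shock factor 1 (HSF1) binds heat shock elements in the DNA and switches on cytosolic chaperone genes. The ER has chaperones of its own, which are switched on by a separate unfolded protein response through the ER stress response element.

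The depth of the libraries was known only roughly. The smallest steps of the RPKM values of short genes gave an estimate of 13 M reads in every mouse. Steps were taken within a fixed range, which holds the estimate near such a value, so it cannot show whether depth differed. Summed RPKM ranged from 677033 to 772157. Defining B cell genes were high in all mice, as in spleen, with a summed RPKM of 5 markers between 1333 and 1938. RNA of pancreatic acinar cells was present in every library, and it was unevenly spread. The summed RPKM of 10 acinar genes, such as the amylase gene Amy2a5 and the protease gene Ctrb1, was 3223, 7316 and 1341 in Con-sa, 3367, 974 and 469 in B-sa, 13218, 12458 and 8228 in B+Con-FMT and 449, 776 and 9570 in B+A10-FMT. The acinar sums of the B+Con-FMT mice were above those of all B-sa and Con-sa mice and overlapped with B+A10-FMT, whose mouse 3 lay above B+Con-FMT mouse 3. The adult beta-globin gene Hbb-bs also set libraries apart, at 25330.5, 45902 and 20289.5 RPKM in Con-sa, 30.5, 17.3 and 9.20 in B-sa, 36.4, 20929.6 and 4024 in B+Con-FMT and 8916, 13234 and 10623 in B+A10-FMT. All 3 B-sa mice and B+Con-FMT mouse 1 were near 0 beside the other 8 mice, and Hbb-bt followed the same split. The B-sa group thus differed from Con-sa and B+A10-FMT in Hbb-bs and Hbb-bt in every mouse. Hbb-b1, another adult beta-globin gene, lay the other way, at 35832, 15053 and 37780 RPKM in Con-sa and 71434, 87642 and 79130 in B-sa. In B+Con-FMT it was at 67197, 55802 and 61737, and in B+A10-FMT at 59446, 43337 and 42544. The summed RPKM of the globin genes was 174119 to 181324 in Con-sa and 206081 to 250228 in B-sa. Without B+Con-FMT mouse 1, 6 chaperone genes rose in B+Con-FMT against B-sa in place of 14, and the count was 7 without mouse 2 of that group, where Hbb-bs was high. The part of this split in the chaperone differences was not tested. For markers of a cell type in bulk RNA, such as the acinar genes, fewer cells and less RNA per cell cannot be told apart.

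The promoter sequences were searched for the elements of both responses. RefSeq windows (GRCm38.p6) of 250 bases before to 50 bases after a transcription start were at hand for 40 of the 48 genes. A heat shock element was searched for as a pair of facing units, GAANNTTC or TTCNNGAA, and as a run of 3 alternating units, GAANNTTCNNGAA or TTCNNGAANNTTC, which contains such pairs. Both strands read the same for the pair. The ER stress response element was searched for as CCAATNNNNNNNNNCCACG on either strand. A pair occurred in 15.1% of all 32851 windows, a run of 3 units in 0.603% and the ER element in 0.119%, and over the 27025 genes the shares with a match in any window were 17%, 0.662% and 0.137%. Among the chaperones, 14 of 40 genes held a pair, among them 6 of 7 heat-inducible genes and 0 of 10 ER genes. A run of 3 units was found in Hsph1, Chordc1, Dnajb6, Hspd1 and Hspe1. The ER element was found in 6 genes, all of them ER genes (Calr, Canx, Dnajc3, Hsp90b1, Hspa5 and Pdia6). These matches are descriptions of the letters and not bound sites.

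Hspa1a and Hspa1b, the stress-inducible HSP70 genes, lie side by side on chromosome 17 and are close to identical. Their 250 bases before the start had the same base at 247 positions, and both held a pair 104 to 97 bases before the start. The 160 bases before each start are shown with the pair in capitals, from chr17:34972157-34972316 and chr17:34959239-34959398 on the minus strand.
Hspa1a: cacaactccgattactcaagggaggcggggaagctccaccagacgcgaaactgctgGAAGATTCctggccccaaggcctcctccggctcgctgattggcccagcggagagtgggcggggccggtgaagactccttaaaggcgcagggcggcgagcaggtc
Hspa1b: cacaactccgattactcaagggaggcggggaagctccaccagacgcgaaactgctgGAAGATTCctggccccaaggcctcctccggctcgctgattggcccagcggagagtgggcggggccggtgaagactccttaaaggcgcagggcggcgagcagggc

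For the cytosolic and mitochondrial genes that rose in B+Con-FMT against B-sa and held a pair, and for 3 ER genes that did not pass the test in any comparison, the 30 bases around the element are shown, with the element in capitals. They lie at chr5:149636287-149636316 (minus strand, Hsph1), chr9:18292260-18292289 (plus, Chordc1), chr4:40722333-40722362 (plus, Dnaja1), chr6:128438789-128438818 (minus, Fkbp4), chr7:128523603-128523632 (plus, Bag3), chr1:55088053-55088082 (plus, between Hspd1 and Hspe1), chr2:34772020-34772049 (plus, Hspa5), chr12:17266486-17266515 (plus, Pdia6) and chr10:86705527-86705556 (minus, Hsp90b1). Hspd1 and Hspe1 are transcribed in opposite directions and share 1 element. From 1 RefSeq start of Hspd1, 215 bases lie between it and the Hspe1 start. Hspd1 is also annotated up to base 55088243, past the Hspe1 start at base 55088148. In Hsph1, Chordc1 and Bag3 the element lies partly or wholly past the RefSeq start. GENCODE exons also cover all 30 bases shown for Hsph1, Chordc1, Dnaja1 and Hspa5, 17 of those for Bag3, and, as an exon of Hspd1, all 30 of the Hspd1/Hspe1 stretch, so that these are transcribed in some annotated transcripts. An exon of a predicted gene on the opposite strand covers the Dnaja1 and Fkbp4 stretches.
Hsph1: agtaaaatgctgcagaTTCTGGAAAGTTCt
Chordc1: ccgGAACGTTCGGGAAAATTCCTGAAgcag
Dnaja1: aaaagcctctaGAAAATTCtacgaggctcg
Fkbp4: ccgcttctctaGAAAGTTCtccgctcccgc
Bag3: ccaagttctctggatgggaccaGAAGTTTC
Hspd1/Hspe1: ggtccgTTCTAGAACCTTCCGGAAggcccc
Hspa5: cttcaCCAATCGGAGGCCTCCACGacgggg
Pdia6: agagaCCAATGAAAGGCGGCCACGgcgtgg
Hsp90b1: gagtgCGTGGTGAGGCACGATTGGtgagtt

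The question put to the groups was whether microbiota from control donors or from alginate oligosaccharide donors changed the expression of chaperone genes in the busulfan-treated spleen. Transfer from control donors was accompanied by a rise of 5 of 6 HSP90 cochaperones, 4 of 9 constitutive and 3 of 9 heat-inducible chaperones, 1 of 2 heat shock factors and 1 of 4 mitochondrial chaperones, while 0 of the 7 chaperonin subunits and 0 of the 11 ER chaperones passed the test. In B+Con-FMT against B-sa, 14 of the 48 genes rose and 0 fell, against a background of 0.623% higher and 0.221% lower among all genes tested. At an unadjusted p under 0.05 in limma, 23 were higher and 1 was lower, and of all genes tested 9.3% were higher and 9.08% lower. Only 79 genes of the whole series rose in this comparison, and the 14 chaperone genes were 17.7% of them. The median log2 fold change was 0.088 over the 48 genes and -0.0041 over all genes tested. In B+A10-FMT against B+Con-FMT, 24 chaperone genes fell and 0 rose, against 2.78% lower and 7.58% higher among all genes. At an unadjusted p under 0.05, 25 were lower and 0 were higher, and of all genes tested 8.78% were lower and 20.1% higher. Both comparisons use the same B+Con-FMT mice, so that they are not independent of each other.

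The B+Con-FMT mice also stood above the mice that had received no busulfan. This comparison with Con-sa was added after the first results were seen. Here 21 chaperone genes rose and 0 fell, against 2.3% higher and 6.57% lower among all genes tested. For 24 of the 48 genes, all 3 B+Con-FMT mice were above each of the other 9 mice, which held for 1.64% of all genes tested. These 24 genes included 7 of 9 heat-inducible genes, all 6 HSP90 cochaperones, 4 of 9 constitutive genes, 4 of 7 chaperonin subunits, 2 of 4 mitochondrial genes, Hsf1, and 0 of 11 ER genes. Summed over the 48 genes, chaperone RNA made up 0.968% to 1.04% of all RPKM in the B+Con-FMT mice and 0.743% to 0.844% in the other 9 mice.

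**Figure D1:**
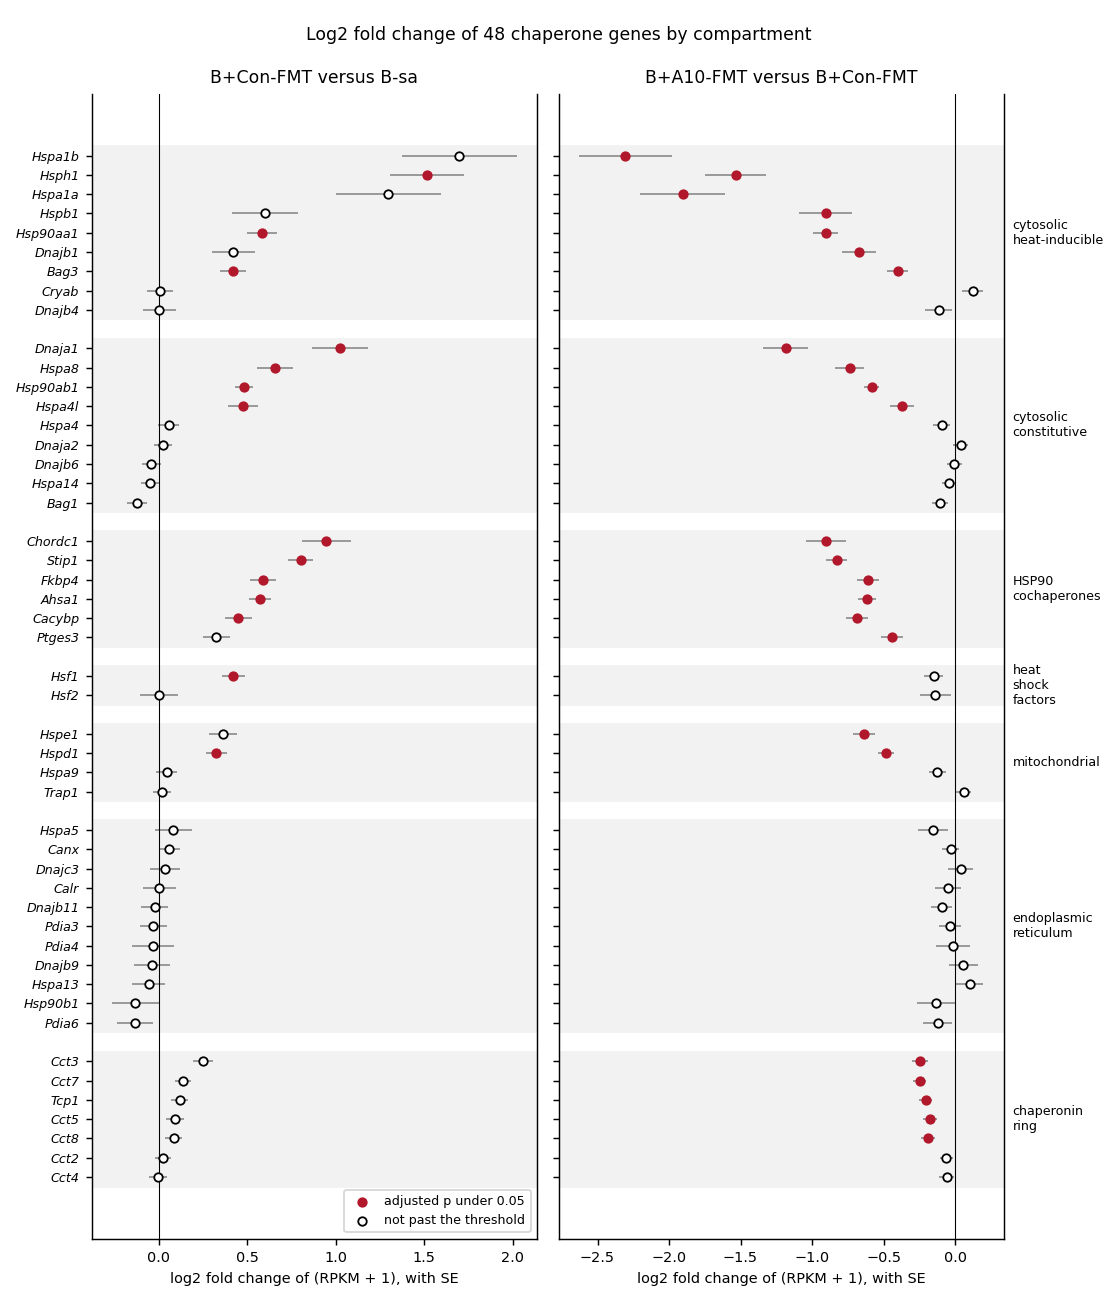
Log2 fold change of (RPKM + 1) with its SE for the 48 chaperone genes, grouped by compartment, for B+Con-FMT against B-sa on the left and B+A10-FMT against B+Con-FMT on the right (the scales differ). Filled points passed an adjusted p of 0.05: 14 genes on the left and 24 on the right, and 0 of the 11 ER genes in either.

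The heat-inducible chaperones of the cytosol held the largest log2 fold changes of the set. Of these 9 genes, Hsph1, Hsp90aa1 and Bag3 rose in B+Con-FMT against B-sa, and the median log2 fold change of the 9 was 0.58. Hsph1, the HSP110 protein that recharges HSP70 with ATP, was at 42.0, 38.4 and 35.2 RPKM in Con-sa, 34.0, 33.7 and 39.5 in B-sa, 114, 113 and 86.8 in B+Con-FMT and 49.0, 35.9 and 24.5 in B+A10-FMT. All 3 B+Con-FMT mice were above the rest, and the other 3 groups overlapped. The mean was 2.92 times that of B-sa, a log2 fold change of 1.51 ± 0.21 (SE, adjusted p = 0.0158), and that of B+A10-FMT against B+Con-FMT was -1.53 ± 0.21 (SE, adjusted p = 0.00476). Hsp90aa1, the inducible HSP90 of the cytosol, was at 335, 312 and 327 RPKM in Con-sa, 359, 405 and 405 in B-sa, 652, 553 and 547 in B+Con-FMT and 342, 315 and 277 in B+A10-FMT. Its B+Con-FMT mice were again the highest, and the B+A10-FMT mice lay below the B-sa mice without overlap. The log2 fold change was 0.58 ± 0.085 (SE, adjusted p = 0.00912) in B+Con-FMT against B-sa and -0.91 ± 0.085 (SE, adjusted p = 0.000229) in B+A10-FMT against B+Con-FMT.

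The stress-inducible HSP70 genes had low levels. Hspa1b was at 3.58, 3.81 and 2.94 RPKM in Con-sa, 1.77, 4.80 and 3.87 in B-sa, 13.1, 19.7 and 8.13 in B+Con-FMT and 2.38, 1.70 and 1.42 in B+A10-FMT. Hspa1a was at 1.58, 1.18 and 1.40 RPKM in Con-sa, 0.510, 1.90 and 1.60 in B-sa, 4.79, 7.06 and 2.62 in B+Con-FMT and 0.810, 0.280 and 0.390 in B+A10-FMT. The B+Con-FMT mice were above all others for both genes, but they differed widely among themselves, and so did the B-sa mice. The mean RPKM of B+Con-FMT was 3.92 times that of B-sa for Hspa1b and 3.61 times for Hspa1a. Neither passed the test, with log2 fold changes of 1.70 ± 0.32 (SE, adjusted p = 0.0505) and 1.30 ± 0.30 (SE, adjusted p = 0.0717). Both passed in B+A10-FMT against B+Con-FMT, with -2.31 ± 0.32 (SE, adjusted p = 0.00546) and -1.90 ± 0.30 (SE, adjusted p = 0.00641). Reads of such similar genes can be split between them in either way, so the sum was also tested. It was at 5.16, 4.99 and 4.34 RPKM in Con-sa, 2.28, 6.70 and 5.47 in B-sa, 17.9, 26.8 and 10.8 in B+Con-FMT and 3.19, 1.98 and 1.81 in B+A10-FMT, and its log2 fold change was 1.75 (adjusted p = 0.0702) in B+Con-FMT against B-sa and -2.49 (adjusted p = 0.00795) in B+A10-FMT against B+Con-FMT.

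The other heat-inducible genes differed in how far they moved. Bag3, which ties HSP70 to the clearance of damaged proteins by autophagy, was at 8.73, 8.47 and 8.86 RPKM in Con-sa, 9.04, 9.23 and 9.78 in B-sa, 13.7, 13.2 and 11.7 in B+Con-FMT and 10.2, 9.62 and 8.59 in B+A10-FMT. Its B+Con-FMT mice did not overlap with any other mouse, and the log2 fold change to B-sa was 0.42 ± 0.074 (SE, adjusted p = 0.0209). Dnajb1, the classical J-domain partner of inducible HSP70, and Hspb1, a small heat shock protein, had log2 fold changes to B-sa of 0.42 ± 0.12 (SE, adjusted p = 0.115) and 0.60 ± 0.19 (SE, adjusted p = 0.138), which did not pass. Both fell in B+A10-FMT against B+Con-FMT, with values of -0.67 ± 0.12 (SE, adjusted p = 0.00877) and -0.91 ± 0.19 (SE, adjusted p = 0.0172). Cryab, the small heat shock protein alpha B-crystallin, ranged from 8.42 to 10.8 RPKM over the 12 mice and Dnajb4, another J-domain protein, from 29.1 to 40.3 RPKM. For Dnajb4 the B+Con-FMT mice lay above the Con-sa mice and the groups overlapped otherwise, and the B+A10-FMT mice lay above the B-sa and B+Con-FMT mice for Cryab. Neither gene passed the test in any of the 6 comparisons.

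**Figure D2:**
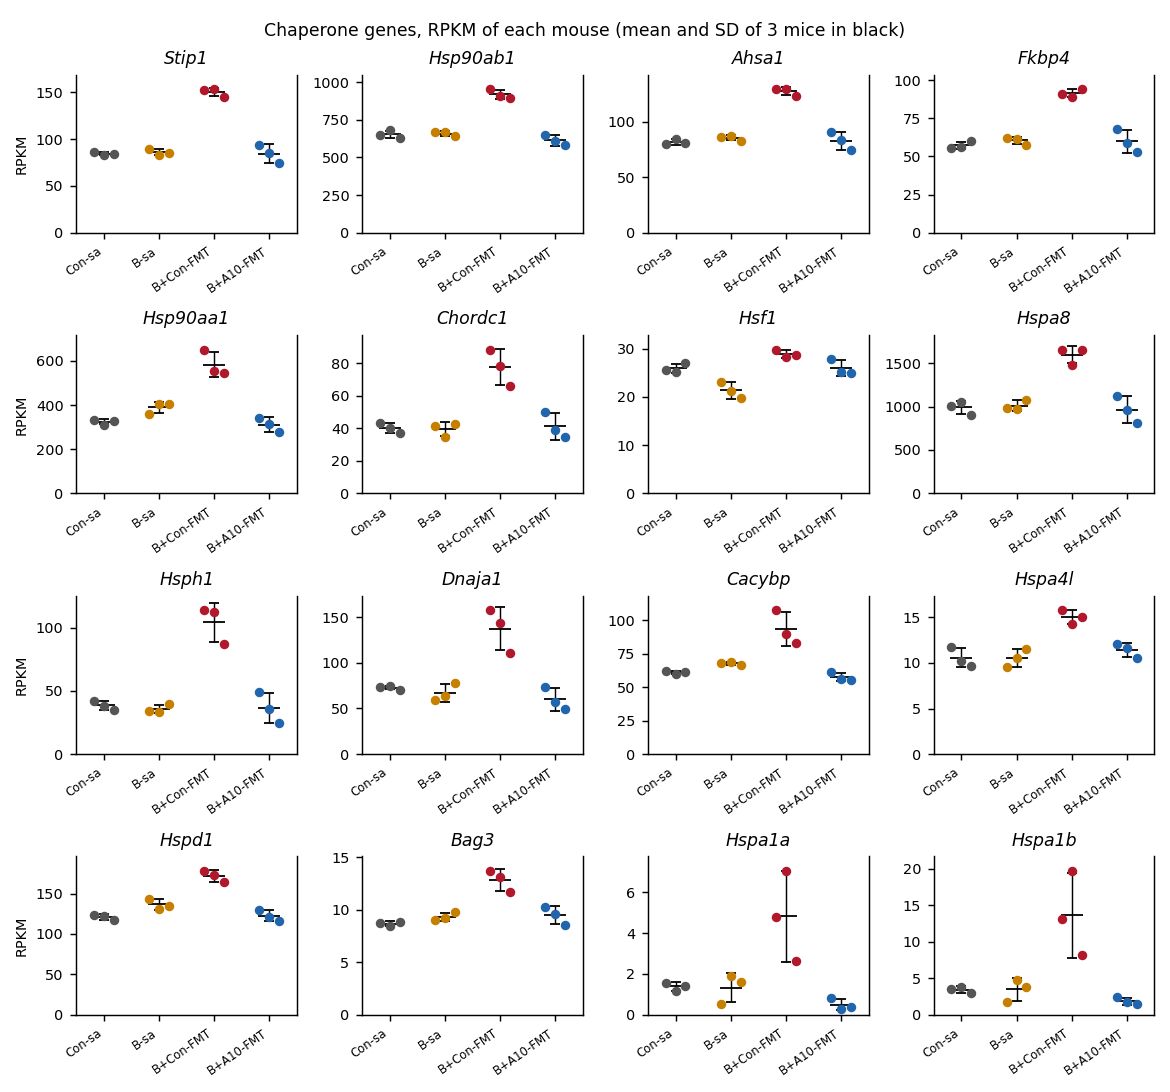
RPKM of each mouse for the 14 chaperone genes that rose in B+Con-FMT against B-sa, in order of adjusted p, and for Hspa1a and Hspa1b. Points are mice, black bars are the mean and SD of 3 mice, and in all 16 panels the 3 B+Con-FMT mice are above the 9 other mice.

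Among the constitutive chaperones the rise was not shared by the whole group. Hspa8, Hsp90ab1, Dnaja1 and Hspa4l rose in B+Con-FMT against B-sa, and the other 5 had log2 fold changes between -0.12 and 0.056. Hspa8, the everyday HSP70 of the cytosol and the chaperone of the highest level here, was at 1006, 1056 and 905 RPKM in Con-sa, 983, 972 and 1078 in B-sa, 1649.5, 1482 and 1655 in B+Con-FMT and 1124, 963 and 806 in B+A10-FMT. Hsp90ab1, the everyday HSP90, was at 649, 679 and 631 RPKM in Con-sa, 668, 668 and 640.1 in B-sa, 955, 906 and 896 in B+Con-FMT and 648, 609 and 581 in B+A10-FMT. For both genes the B+Con-FMT mice stood apart and the other 3 groups overlapped. Their log2 fold changes to B-sa were 0.66 ± 0.10 (SE, adjusted p = 0.0137) and 0.48 ± 0.051 (SE, adjusted p = 0.00124), and those of B+A10-FMT against B+Con-FMT were -0.74 ± 0.10 (SE, adjusted p = 0.0026) and -0.58 ± 0.051 (SE, adjusted p = 0.000165). By summed RPKM, the 9 constitutive genes held 2978 ± 109 (SD, n = 3) in B+Con-FMT and 2067 ± 49.8 in B-sa.

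Dnaja1, a J-domain protein that hands unfolded protein to HSP70, was at 73.6, 74.1 and 70.5 RPKM in Con-sa, 59.3, 63.2 and 77.6 in B-sa, 157, 144 and 111 in B+Con-FMT and 73.5, 57.3 and 49.3 in B+A10-FMT. All B+Con-FMT mice were above the rest, and the ratio of means to B-sa was 2.06. Its log2 fold change to B-sa was 1.03 ± 0.16 (SE, adjusted p = 0.0169), and that of B+A10-FMT against B+Con-FMT was -1.18 ± 0.16 (SE, adjusted p = 0.00309). Hspa4l, a relative of HSP110, rose by 0.48 ± 0.083 (SE, adjusted p = 0.0204). Its relative Hspa4 ranged from 47.6 to 56.3 RPKM over all mice, with a log2 fold change of 0.056 ± 0.058 (SE, adjusted p = 0.659) in the same comparison. Dnaja2, a close relative of Dnaja1, ranged from 46.2 to 52.8 RPKM, with 0.025 ± 0.051 (SE, adjusted p = 0.841). Dnajb6, which holds a run of 3 heat shock units, ranged from 62.8 to 73.3 RPKM, with -0.042 ± 0.052 (SE, adjusted p = 0.72). Hspa14, which works at the ribosome, and Bag1, which releases protein from HSP70, did not pass in either of these comparisons.

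The HSP90 cochaperones moved in the same direction. Of the 6 genes, 5 rose in B+Con-FMT against B-sa, where the 6 had a median of 0.58 on the log2 scale, and all 6 fell in B+A10-FMT against B+Con-FMT, with a median of -0.65. Stip1, which passes proteins from HSP70 to HSP90, was at 86.7, 83.1 and 83.5 RPKM in Con-sa, 89.2, 82.8 and 85.1 in B-sa, 152, 153 and 145 in B+Con-FMT and 94.1, 84.8 and 74.5 in B+A10-FMT. Its B+Con-FMT mice lay close together and above the rest, and its adjusted p of 0.000296 (log2 fold change 0.80 ± 0.071) was the smallest of the 48 genes in this comparison. Ahsa1, which speeds up the ATPase of HSP90, was at 80.1, 84.5 and 80.7 RPKM in Con-sa, 86.7, 87.0 and 83.0 in B-sa, 129, 129.8 and 123 in B+Con-FMT and 90.5, 83.7 and 74.6 in B+A10-FMT. Fkbp4, which joins HSP90 to steroid receptors, was at 55.9, 56.2 and 60.0 RPKM in Con-sa, 62.2, 61.6 and 57.8 in B-sa, 91.2, 89.2 and 94.2 in B+Con-FMT and 67.9, 58.8 and 53.2 in B+A10-FMT. Both showed the same separation, with log2 fold changes to B-sa of 0.57 ± 0.063 (SE, adjusted p = 0.00128) and 0.59 ± 0.074 (SE, adjusted p = 0.003). In B+A10-FMT against B+Con-FMT the 3 genes fell, with log2 fold changes of -0.83 ± 0.071 (SE, adjusted p = 0.000165), -0.62 ± 0.063 (SE, adjusted p = 0.000367) and -0.61 ± 0.074 (SE, adjusted p = 0.00095).

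Chordc1, an HSP90 partner with 4 overlapping heat shock pairs at its start, was at 43.0, 40.5 and 36.9 RPKM in Con-sa, 41.5, 34.7 and 42.8 in B-sa, 88.3, 78.0 and 66.2 in B+Con-FMT and 50.2, 38.8 and 34.6 in B+A10-FMT. Cacybp, the calcyclin-binding protein, was at 62.2, 59.8 and 61.1 RPKM in Con-sa, 67.6, 69.0 and 66.6 in B-sa, 107, 89.6 and 83.3 in B+Con-FMT and 61.2, 55.7 and 55.6 in B+A10-FMT. The B+Con-FMT mice were the highest for both, and B+A10-FMT mouse 1 was the highest of the others for Chordc1. Log2 fold changes to B-sa were 0.95 ± 0.14 (SE, adjusted p = 0.0128) and 0.45 ± 0.077 (SE, adjusted p = 0.0179), and those of B+A10-FMT against B+Con-FMT were -0.90 ± 0.14 (SE, adjusted p = 0.00539) and -0.68 ± 0.077 (SE, adjusted p = 0.000596). Ptges3, the cochaperone p23, had 0.32 ± 0.076 (SE, adjusted p = 0.0653) in B+Con-FMT against B-sa, just outside the threshold, and -0.44 ± 0.076 (SE, adjusted p = 0.00646) in B+A10-FMT against B+Con-FMT. Its 3 B+Con-FMT mice, at 125, 112 and 104 RPKM, were above all 9 others, the highest of which was at 97.0 RPKM.

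Of the 2 heat shock factors only Hsf1 passed the test, and the difference between the 2 genes was not itself tested. Hsf1, the factor that switches on the cytosolic chaperones, was at 25.5, 25.1 and 26.9 RPKM in Con-sa, 23.1, 21.2 and 19.7 in B-sa, 29.8, 28.2 and 28.6 in B+Con-FMT and 27.9, 25.0 and 24.9 in B+A10-FMT. The B-sa mice were the lowest for this gene and did not overlap with any other group. Hsf1 fell in B-sa against Con-sa, with a log2 fold change of -0.27 ± 0.065 (SE, adjusted p = 0.0201), and it rose over B-sa in both transplanted groups, by 0.42 ± 0.065 (SE, adjusted p = 0.0128) in B+Con-FMT and 0.27 ± 0.065 (SE, adjusted p = 0.0349) in B+A10-FMT. The difference between the transplanted groups was -0.15 ± 0.065 (SE, adjusted p = 0.153) for Hsf1 and -0.14 ± 0.11 (SE, adjusted p = 0.417) for Hsf2. Hsf1 was summed over 7 transcripts, of which 1 was an NM transcript. With NM transcripts only, its fall in B-sa and its rise in B+A10-FMT did not pass. Its rise in B+Con-FMT did not pass in every alternative either. Hsf2 was low, at 4.04, 3.96 and 3.51 RPKM in Con-sa, 5.02, 3.75 and 4.23 in B-sa, 4.81, 4.16 and 4.01 in B+Con-FMT and 3.34, 4.39 and 3.83 in B+A10-FMT, and its groups overlapped. These values are levels of mRNA, and HSF1 is known to be controlled mainly after it is made.

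In the mitochondria, the genes of the folding chamber passed the test in at least 1 comparison and the other chaperones in 0. Hspd1, the chamber protein HSP60, was at 124, 122 and 117 RPKM in Con-sa, 144, 131 and 135 in B-sa, 178, 173 and 164 in B+Con-FMT and 130.2, 121 and 116 in B+A10-FMT. Hspe1, its lid HSP10, was at 168, 156 and 162 RPKM in Con-sa, 186, 206 and 173 in B-sa, 265, 226 and 236 in B+Con-FMT and 169, 153 and 145 in B+A10-FMT. The genes share 1 promoter region, and for both the B+Con-FMT mice were the highest of all. Hspd1 rose in B+Con-FMT against B-sa by 0.33 ± 0.057 (SE, adjusted p = 0.0204), whereas Hspe1, at 0.36 ± 0.078 (SE, adjusted p = 0.0528), lay just outside the threshold. Both fell in B+A10-FMT against B+Con-FMT, with values of -0.48 ± 0.057 (SE, adjusted p = 0.00079) and -0.63 ± 0.078 (SE, adjusted p = 0.00106). Hspa9, the mitochondrial HSP70, ranged from 81.8 to 96.9 RPKM over the 12 mice, and Trap1, the mitochondrial HSP90, from 45.2 to 52.0 RPKM. Their log2 fold changes to B-sa were 0.044 ± 0.058 (SE, adjusted p = 0.735) and 0.017 ± 0.052 (SE, adjusted p = 0.895).

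The subunits of the chaperonin ring showed small differences with little spread. In B+Con-FMT against B-sa 0 of 7 passed limma's adjusted threshold, 3 had an unadjusted p under 0.05, and the median log2 fold change was 0.091, or 0.038 with equal totals outside the globin genes. The largest value was that of Cct3, 0.25 ± 0.058 (SE, adjusted p = 0.0653). In B+A10-FMT against B+Con-FMT, Cct3, Cct5, Cct7, Cct8 and Tcp1 fell, with log2 fold changes from -0.25 to -0.18, and Cct2 and Cct4 did not pass. Cct5 was at 157, 164 and 152 RPKM in Con-sa, 169, 161 and 155 in B-sa, 173, 169.7 and 174 in B+Con-FMT and 155, 156 and 146 in B+A10-FMT. Cct2 was at 157, 162 and 156 RPKM in Con-sa, 165, 158 and 163 in B-sa, 168, 166 and 159 in B+Con-FMT and 156, 159 and 159 in B+A10-FMT. The B+Con-FMT mice were above the others for Cct5 by a narrow margin and overlapped with B-sa for Cct2, and the log2 fold changes of B+A10-FMT against B+Con-FMT were -0.18 ± 0.051 (SE, adjusted p = 0.0445) and -0.06 ± 0.044 (SE, adjusted p = 0.388).

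Of the 11 ER genes, 0 passed limma's adjusted threshold in any of the 6 comparisons. At an unadjusted p under 0.05 there were 0 in B+Con-FMT against B-sa and 0 in B+A10-FMT against B+Con-FMT, and 0 had B+Con-FMT mice that were separate from the B-sa mice. The exceptions in the other comparisons were both Pdia6, a protein disulfide isomerase, which had 0.27 ± 0.10 (SE, adjusted p = 0.098) in B-sa against Con-sa, where the mice overlapped, and -0.26 ± 0.10 (SE, adjusted p = 0.148) in B+A10-FMT against B-sa, where all 3 B+A10-FMT mice were lower; both had an unadjusted p under 0.05 in limma. The log2 fold changes in B+Con-FMT against B-sa lay between -0.13 and 0.083 with a median of -0.03, and those in B+A10-FMT against B+Con-FMT between -0.15 and 0.10 with a median of -0.036. Calr, the calcium-binding lectin chaperone calreticulin, was at 324, 363 and 304 RPKM in Con-sa, 386, 330.3 and 345 in B-sa, 326, 353 and 384 in B+Con-FMT and 357, 369 and 302 in B+A10-FMT. Hsp90b1, the HSP90 of the ER, was at 327, 372 and 269 RPKM in Con-sa, 400.1, 291 and 381 in B-sa, 306, 325 and 339 in B+Con-FMT and 322, 292 and 271 in B+A10-FMT. Hspa5, the HSP70 of the ER known as BiP, was at 244, 280.1 and 216 RPKM in Con-sa, 284, 231 and 262 in B-sa, 265, 271 and 285 in B+Con-FMT and 271, 254 and 215 in B+A10-FMT. The 4 groups overlapped for each of these genes. Their log2 fold changes to B-sa were 0.0037 ± 0.092 (SE, adjusted p = 0.99), -0.13 ± 0.13 (SE, adjusted p = 0.645) and 0.083 ± 0.11 (SE, adjusted p = 0.726). The SE of these log2 fold changes was 0.11 for Hspa5 and 0.13 for Hsp90b1, against 0.051 for Hsp90ab1 and 0.10 for Hspa8.

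**Figure D3:**
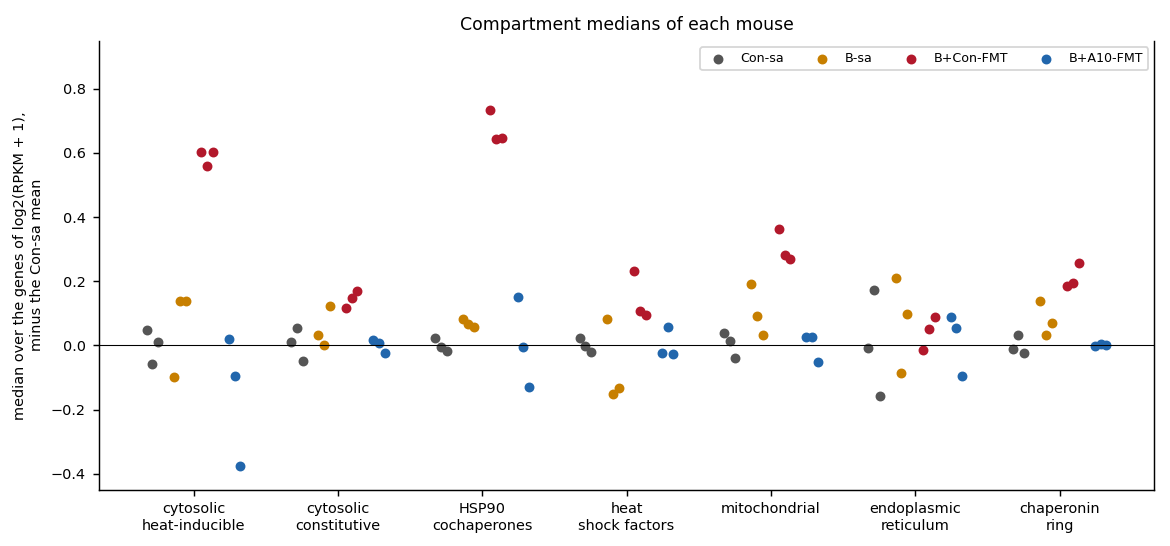
For each mouse and compartment, the median over its genes of log2(RPKM + 1) minus the Con-sa mean. The 3 B+Con-FMT mice lie between 0.56 and 0.60 for the heat-inducible genes and between 0.64 and 0.73 for the HSP90 cochaperones, above all other mice, while for the ER genes the 4 groups overlap.

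The families that have members in several compartments can be set side by side in B+Con-FMT against B-sa. Both HSP90 genes of the cytosol rose (Hsp90aa1 0.58, Hsp90ab1 0.48), whereas the log2 fold changes of Hsp90b1 of the ER and Trap1 of the mitochondria were -0.13 and 0.017. In the HSP70 family, Hspa8 and Hspa4l of the cytosol rose, as did the HSP110 gene Hsph1, at 1.51. Hspa4 and Hspa14 of the cytosol, at 0.056 and -0.049, did not pass, and neither did Hspa1a and Hspa1b, given above. Hspa5 and Hspa13 of the ER and Hspa9 of the mitochondria, at 0.083, -0.058 and 0.044, did not pass either. Of 5 cytosolic J-domain genes 1 rose, Dnaja1, and the other 4 were at 0.42 (Dnajb1), 0.025 (Dnaja2), 0.0037 (Dnajb4) and -0.042 (Dnajb6). Dnajb9, Dnajb11 and Dnajc3, the J-domain genes of the ER, were at -0.04, -0.023 and 0.035. The difference between compartments was not itself tested.

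Busulfan without a transplant moved 3 chaperone genes past the test. In B-sa against Con-sa, Bag1 rose by 0.23 ± 0.056 (SE, adjusted p = 0.0218) and Hspa14 by 0.16 ± 0.05 (SE, adjusted p = 0.045), and Hsf1 was the only chaperone gene that fell. These are 2 genes higher and 1 lower of 48, or 4.17% and 2.08%, and among all genes tested 4.73% were higher and 9.78% lower. With median-of-ratios scaling 6 were higher and 1 lower. Counted whether or not they passed, 32 of the 48 log2 fold changes were above 0, against 5091 of 12671, and the medians were 0.064 and -0.044. All 3 B-sa mice were above all 3 Con-sa mice for 12 of the 48 genes, against 11.2% of all genes tested. At an unadjusted p under 0.05, 9 were higher and 1 was lower, against 10.7% and 20.6%. Hsp90aa1 lay above Con-sa in all 3 B-sa mice, with 0.26 ± 0.085 (SE, adjusted p = 0.0572), as did Hspd1, with 0.17 ± 0.057 (SE, adjusted p = 0.0574), but neither passed. The 3 calls were not firm: the count was 0 without Con-sa mouse 1 or B-sa mouse 2, 1 without Con-sa mouse 3 or B-sa mouse 3 and 5 without B-sa mouse 1.

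After transfer from alginate oligosaccharide donors, 3 chaperone genes differed from B-sa and 0 from Con-sa by the test. In B+A10-FMT against B-sa, Hsf1 rose and Hsp90aa1 and Bag1 fell, with log2 fold changes of -0.33 ± 0.085 (SE, adjusted p = 0.0458) and -0.23 ± 0.056 (SE, adjusted p = 0.038). These are 1 gene higher and 2 lower of 48, against a background of 4% higher and 1.27% lower. Counted whether or not they passed, 36 of the 48 log2 fold changes were below 0, against 4752 of 12671, and the medians were -0.076 and 0.046. All 3 B+A10-FMT mice were below all 3 B-sa mice for 10 of the 48 genes, against 7.38% of all genes tested. At an unadjusted p under 0.05, 8 were lower and 1 was higher, against 6.93% and 17.5%. The count of 3 fell to 0 without Con-sa mouse 1, B+A10-FMT mouse 2 or 3 or B-sa mouse 2, and to 1 without Con-sa mouse 2 or 3, B+A10-FMT mouse 1 or B+Con-FMT mouse 2; the groups not compared enter through the shared estimate of the spread. In B+A10-FMT against Con-sa, 0 of the 48 genes passed limma's adjusted threshold, against a background of 0.118% higher and 0.292% lower, and the smallest adjusted p of a chaperone was 0.325. At an unadjusted p under 0.05, 2 of the 48 genes were lower and 0 higher, against 6.38% lower and 7.12% higher of all genes tested. The 48 log2 fold changes in that comparison lay between -0.69 and 0.11 with a median of 0.002. The B+A10-FMT mice were themselves unequal: mouse 1 had the highest value of its group for 33 of the 48 genes and mouse 3 the lowest for 40. This included all 6 HSP90 cochaperones in both cases and all 11 ER genes for mouse 3. The same order was not counted over all genes, so it is not read as a trait of the chaperones. For 28 of the 48 genes, all 3 B+A10-FMT mice were nevertheless below all 3 B+Con-FMT mice, against 11.2% of all genes tested. Likewise 24 genes had all 3 B+Con-FMT mice above all 3 B-sa mice, against 10.4%, and 29 had them above all 3 Con-sa mice, against 10.6%.

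The acinar RNA also differed between the groups, and its part in the chaperone differences was not tested. All 10 acinar genes were higher in the 3 B+Con-FMT mice than in the 3 B-sa mice, although 0 of them passed limma's adjusted threshold and 10 had an unadjusted p under 0.05. B+A10-FMT mouse 3, with an acinar sum of 9570, was above B+Con-FMT mouse 3 in acinar RNA, at 8228, and had the lowest Hsph1 of all 12 mice, 24.5 against 86.8 RPKM. Con-sa mouse 2, with an acinar sum of 7316, had 38.4 RPKM of Hsph1. These are single mice, and B+A10-FMT mouse 3 was the lowest of its group for 40 of the 48 chaperone genes. With the acinar level as a covariate, a choice made after the data were seen, 10 chaperone genes rose in B+Con-FMT against B-sa and 19 fell in B+A10-FMT against B+Con-FMT. The share of all genes that passed in this fit is not given, so these counts have no background. Nor can the fit separate acinar level from group in the first comparison, where the acinar sums did not overlap. The heat-inducible and cochaperone medians were then 0.76 and 0.68 in the first comparison.

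**Figure D4:**
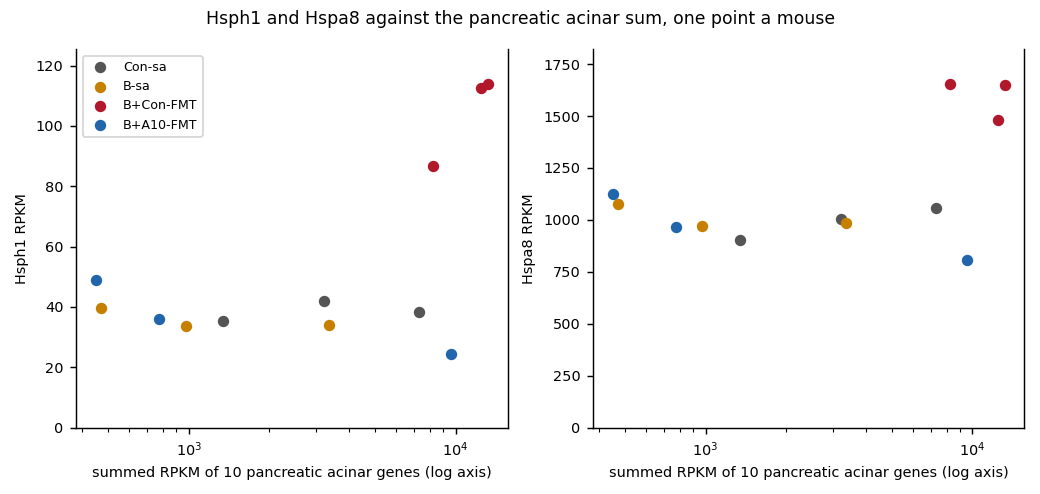
RPKM of Hsph1 (left) and Hspa8 (right) against the summed RPKM of 10 pancreatic acinar genes on a log axis, with 1 point for each of 12 mice. The B+Con-FMT mice are highest on both axes but for B+A10-FMT mouse 3, which has an acinar sum of 9570 with 24.5 RPKM of Hsph1 and 806 of Hspa8.

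Other cell markers also differed between the groups. The T cell gene Cd3e rose in B+Con-FMT against B-sa by 0.48 ± 0.10 (SE, adjusted p = 0.0492), as 1 of 5 T cell markers, and the summed RPKM of the 5 lay between 230.4 and 293 in B+Con-FMT, 181 and 235 in B-sa, 204 and 229 in B+A10-FMT and 189 and 222 in Con-sa. Endothelium and red pulp macrophages each had 4 of 5 markers that rose in B+A10-FMT against B+Con-FMT. In B+Con-FMT against Con-sa, 4 of 5 endothelial markers fell, 2 of 5 T cell markers rose, 1 of 5 B cell markers fell, and 1 of 5 plasma cell markers fell. All 5 neutrophil and 9 of 10 acinar markers were higher in all 3 of these mice than in all 3 Con-sa mice, and 0 of either list passed limma's test at an adjusted or an unadjusted p under 0.05. In B-sa against Con-sa, 4 of 5 B cell markers fell, 3 of 5 markers of cycling cells rose, 1 of 5 neutrophil and 1 of 5 erythroid precursor markers rose, and 1 of 5 endothelial markers fell. In B+A10-FMT against B-sa, 2 of 5 red pulp macrophage markers and 2 of 5 endothelial markers rose. The neutrophil sum of 5 markers lay between 2235 and 3189 in B+Con-FMT, 3416 and 5557 in B-sa, 1892 and 4728 in B+A10-FMT and 1919 and 1996 in Con-sa. All 5 markers of cycling cells were lower in the comparison of B+Con-FMT with B-sa at an unadjusted p under 0.05 and 0 passed limma's adjusted threshold, with sums of 407 to 495 and 472 to 575 RPKM. Kap, the 1 kidney marker of 4 that passed the filter, was at 96.9, 72.7 and 112 RPKM in Con-sa, 7.23, 11.6 and 14.4 in B-sa, 23.3, 16.8 and 60.0 in B+Con-FMT and 1.43, 0.580 and 2.96 in B+A10-FMT. All B+Con-FMT mice were above the B-sa mice and below the Con-sa mice for Kap, which also fell in B-sa against Con-sa with -3.00 ± 0.51 (SE, adjusted p = 0.0104) and in B+A10-FMT against B-sa with -2.24 ± 0.51 (SE, adjusted p = 0.0443) in limma. It fell in B+A10-FMT against B+Con-FMT with -3.59 ± 0.51 (SE, adjusted p = 0.00789). In B+A10-FMT against Con-sa, Kap fell with a log2 fold change of -5.24, and 1 of 5 red pulp macrophage markers rose. Of 9 immediate early genes such as Fos and Egr1, which react within minutes to the handling of tissue, 0 passed in B+Con-FMT against B-sa, where 2 were higher and 1 lower at an unadjusted p under 0.05 in limma. Ier2 fell in B+A10-FMT against B+Con-FMT, with -0.30 ± 0.075 (SE, adjusted p = 0.0287), and rose in B+Con-FMT against Con-sa by 0.28 ± 0.075 (SE, adjusted p = 0.0369), and its 3 B+Con-FMT mice were above all 9 others. The sum of the immediate early genes lay between 121 and 129 RPKM in B+Con-FMT, above the 111 to 118 of B+A10-FMT and the 115 to 119 of Con-sa, and overlapped with the 107 to 129 of B-sa. The part of these markers in the chaperone differences was not tested.

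Related genes outside the set were read from lists of the same functions. Of 35 other cytosolic chaperones and cochaperones, 1 rose in B+Con-FMT against B-sa, St13, the HSP70-interacting protein HIP, by 0.45 ± 0.068 (SE, adjusted p = 0.0109), against 0.623% higher among all genes tested. Of these 35, 6 fell in B+A10-FMT against B+Con-FMT and 0 rose, where the background was 2.78% lower and 7.58% higher, with the smallest adjusted p for the chaperonin subunit Cct6a, at -0.35 ± 0.056 (SE, adjusted p = 0.00442), the prefoldin subunit Pfdn4, at -0.31 ± 0.053 (SE, adjusted p = 0.00603) and the cyclophilin Ppid, at -0.32 ± 0.059 (SE, adjusted p = 0.00866). Of the 26 listed genes of the unfolded protein response and ER folding, 24 passed the filter. Among those, 0 passed limma's test in B+Con-FMT against B-sa, where 4 were higher and 2 lower at an unadjusted p under 0.05, and in B+A10-FMT against B+Con-FMT 5 fell and 1 rose, against that same background. The smallest adjusted p in the latter were those of Atf4, a transcription factor of the integrated stress response, at -0.33 ± 0.059 (SE, adjusted p = 0.00785), of Syvn1, a ubiquitin ligase of the ER, at -0.24 ± 0.06 (SE, adjusted p = 0.0254), and of Dnajc10, an ER reductase that rose, at 0.23 ± 0.057 (SE, adjusted p = 0.0265). Of 10 genes of mitochondrial folding and proteolysis outside the set, 0 passed limma's test in either comparison, and 1 and 0 had an unadjusted p under 0.05. The median log2 fold changes of the 3 lists in B+Con-FMT against B-sa were 0.039, -0.025 and 0.019.

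The count of genes that rose in B+Con-FMT against B-sa changed when 1 mouse was left out. It was 5 without B-sa mouse 2, 6 without B+Con-FMT mouse 1 and 7 without B+Con-FMT mouse 2, in place of 14. The counts over all genes in these fits are not given. Without 1 mouse, the heat-inducible median log2 fold change was 0.50 to 0.61 and that of the HSP90 cochaperones 0.55 to 0.59. The constitutive median was 0.021 to 0.10. Stip1, Hsp90ab1, Ahsa1, Fkbp4 and Hsp90aa1 passed without each of the 6 mice in turn and in each other alternative run. The count for B+A10-FMT against B+Con-FMT stayed between 18 and 24 without 1 mouse, and 17 of the 24 genes passed in each alternative that gave them a value.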

How the data were processed

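Spleen RNA of 12 mice was measured by poly(A) RNA sequencing, 3 libraries in each of 4 groups. The authors deposited RPKM values per RefSeq transcript, 1 table for each library. Their processing notes name HISAT, Bowtie2 and mm10, whereas the methods of the study name SOAPaligner, and whether strand was used in counting is not given in the sources used here. No counts were used, and the read depth given is an estimate from the smallest steps of the RPKM of 848 genes, taken within a fixed range.

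RPKM was summed over all transcripts of a gene (60654 transcripts, 18221 genes). Genes with at least 1 RPKM in at least 3 mice were kept, 1 was added, and log2 values were fitted by group in limma (version 3.58.1, R 4.3.3, trended and robust variances) over all 12 mice in 1 fit. P-values were adjusted by Benjamini-Hochberg over 12671 genes, with a threshold of 0.05. The script was tested on simulated data. With 3 against 3 mice an exact permutation test of a single gene cannot go below p = 0.1, so none is given. Other tables were made in Python 3.11.15 with pandas 2.3.3.

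The 48 genes, the lists and the tests were chosen with earlier results of these data known. Values of each mouse are given for up to 14 genes called in at least 1 comparison, those of smallest adjusted p first, and for the 2 genes of highest mean RPKM of each compartment. Of the other pathway genes, up to 3 a list and comparison are named. Values of Bag3, Ptges3 and Hspa5 beyond this rule were chosen after they were seen. Alternatives were another pseudocount (0.1), 2 other filters, a replicate block, fits of only the groups compared, 3 other scalings, NM transcripts only, each mouse left out and, added after seeing the data, an acinar covariate and Hspa1a and Hspa1b summed.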

Additional observations from a re-analysis of the deposited data

How the results depend on the processing

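No chaperone gene that passed the test changed direction in an alternative that gave it a value, but several counts moved. For B+Con-FMT against B-sa the count of 14 was 8 when only the groups compared were fitted and 9 with NM transcripts only, and 5 to 17 without 1 mouse. For B+A10-FMT against B+Con-FMT the count of 24 was 18 to 24 without 1 mouse. For B-sa against Con-sa the count of 3 was 7 with median-of-ratios scaling, 0 with only the groups compared, 1 with NM transcripts only and 0 to 5 without 1 mouse. For B+A10-FMT against B-sa the count of 3 was 0 without a filter, 0 with only the groups compared, 0 with NM transcripts only and 0 to 4 without 1 mouse. Fewer mice or fewer transcripts enter these fits by construction, and for the other settings the cause was not tested.

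Medians moved by more than the spread between mice in a few cases. With the acinar covariate the heat-inducible median was 0.76 and the cochaperone median 0.68 in B+Con-FMT against B-sa, and the heat-inducible median was -1.06 in B+A10-FMT against B+Con-FMT. With equal totals outside the globin genes the constitutive and ring medians were 0.0034 and 0.038 in the first comparison, and the constitutive, mitochondrial and ring medians -0.048, -0.245 and -0.131 in the second. Median-of-ratios scaling gave -0.157 and -0.239 for the constitutive and ring medians there, and totals equal outside globin and acinar genes gave -0.151 for the ring. Without 1 mouse, the constitutive median was 0.021 to 0.10 in the first comparison, and in the second the heat-inducible median was -0.977 to -0.768 and the constitutive median -0.155 to -0.088. The ER medians lay on both sides of 0, at -0.087 to 0.043 and -0.095 to 0.020.

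The replicate numbers did not pair the mice, since the correlations of deviations of same-numbered mice ran from -0.37 to 0.30. With a replicate block the counts were 14 for B+Con-FMT against B-sa, 22 for B+A10-FMT against B+Con-FMT, 20 for B+Con-FMT against Con-sa, 3 for B-sa against Con-sa and 1 for B+A10-FMT against B-sa. Over the named genes and alternatives, 304 of the values for B+Con-FMT against B-sa kept their side of the threshold, 41 lost the call and 10 gained it, and for B+A10-FMT against B+Con-FMT 367 kept it and 39 lost it. The tables used hold no counts, so no counting interval is given, and the number of mice limits the precision.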

Other observations

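Some genes outside the set, chosen after their values had been seen, are given here as values. Ahsa2, a relative of the HSP90 cochaperone Ahsa1, was at 17.4, 17.6 and 17.6 RPKM in Con-sa, 17.2, 16.7 and 16.5 in B-sa, 37.3, 34.5 and 28.4 in B+Con-FMT and 21.7, 16.6 and 15.5 in B+A10-FMT. Its B+Con-FMT mice were above all others, with a limma log2 fold change to B-sa of 0.94 ± 0.11 (SE, adjusted p = 0.0022) and one of -0.87 ± 0.11 (SE, adjusted p = 0.00153) in B+A10-FMT against B+Con-FMT. Cirbp, an RNA-binding protein known to be induced by cold, was at 36.1, 35.9 and 39.4 RPKM in Con-sa, 41.8, 34.1 and 30.8 in B-sa, 25.6, 29.4 and 28.2 in B+Con-FMT and 35.03, 44.2 and 55.0 in B+A10-FMT. All 3 B+Con-FMT mice were below the other 9 mice. Its log2 fold change was -0.34 ± 0.14 (SE, adjusted p = 0.247) in B+Con-FMT against B-sa, which did not pass, and 0.65 ± 0.14 (SE, adjusted p = 0.0214) in B+A10-FMT against B+Con-FMT, which did.

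Rbm3, the other classical cold-induced RNA-binding protein, was at 285, 297 and 273 RPKM in Con-sa, 338, 347 and 369 in B-sa, 243, 256 and 232 in B+Con-FMT and 249.8, 332 and 374 in B+A10-FMT. Its B+Con-FMT mice lay below the B-sa mice and overlapped with B+A10-FMT mouse 1. The limma log2 fold changes of -0.53 ± 0.11 (SE, adjusted p = 0.053) and 0.37 ± 0.11 (SE, adjusted p = 0.0565) in the same comparisons did not pass. Ubqln1, which delivers proteins to the proteasome, had 0.30 ± 0.056 (SE, adjusted p = 0.0255) and -0.22 ± 0.056 (SE, adjusted p = 0.0278). Jmjd6, a nuclear hydroxylase, was at 27.0, 26.9 and 27.6 RPKM in Con-sa, 21.8, 23.4 and 22.7 in B-sa, 29.7, 28.8 and 25.5 in B+Con-FMT and 21.0, 20.5 and 21.8 in B+A10-FMT. Its B+Con-FMT and Con-sa mice overlapped, with a difference of 0.038 ± 0.059 (SE, adjusted p = 0.718) in limma, and the B-sa and B+A10-FMT mice lay below both groups. Against Con-sa, Jmjd6 fell in B-sa with -0.25 ± 0.059 (SE, adjusted p = 0.0165) and in B+A10-FMT with -0.35 ± 0.059 (SE, adjusted p = 0.0235) in limma, and its log2 fold changes in the comparisons above were 0.29 ± 0.059 (SE, adjusted p = 0.0409) and -0.39 ± 0.059 (SE, adjusted p = 0.00345). Within B+A10-FMT, mouse 1 had the highest Hsph1 (49.0 RPKM) and the lowest Cirbp (35.03 RPKM), and mouse 3 had the lowest Hsph1 (24.5 RPKM) and the highest Cirbp (55.0 RPKM). What underlies these values was not tested.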
